A study of Mus musculus with 30 samples.

Results

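FOSL2 and ATF2 are basic leucine zipper (bZIP) transcription factors, and their binding sites were compared in 3T3-L1 cells, a mouse pre-adipocyte line, 4 h after the start of fat cell differentiation. Sites were taken as the intervals that the authors listed for each factor on chromosomes 1 to 19 and X, and 2 sites counted as the same when chromosome, start and end were identical. The FOSL2 list held 6284 sites and the ATF2 list 11547. Of the 14450 intervals in either list, 3381 were in both, 2903 in the FOSL2 list alone and 8166 in the ATF2 list alone. These 3 classes are called shared, FOSL2-only and ATF2-only sites below. The 14450 intervals were part of a common set of 34724 intervals listed for at least 1 of 9 factors, and the remaining 20274 were listed for neither protein.

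The 9 factors were mapped by chromatin immunoprecipitation with sequencing (ChIP-seq), with 1 library per factor, all at 4 h. After confluence the cells were given a mixture of insulin (1 μg per ml), dexamethasone (1 μM), which activates the glucocorticoid receptor, and isobutylmethylxanthine (0.5 mM), which keeps cyclic AMP from being broken down, in medium with 10% FCS. Chromatin was cross-linked with formaldehyde, and the antibodies were those labelled FOSL2 (L-15) and ATF2 (N-96). No untreated culture, input or second library entered the comparison, so the values describe these libraries under this treatment, and no test across cultures exists.

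A bZIP protein binds DNA as a dimer, held together by the leucine zipper, with a basic stretch of each partner in the major groove. FOSL2, also called Fra-2, is a Fos family member: Fos proteins do not form stable dimers with themselves and pair with cJun, JunB or JunD to form the AP-1 complex. ATF2 and its close relative ATF7 form dimers with themselves and each other and can also pair with Jun proteins, and their DNA sites resemble those of the cyclic AMP response element. Jun proteins are therefore partners available to both FOSL2 and ATF2, whereas ATF7 belongs to the ATF2 side. The other 4 factors were KLF4 and KLF5, zinc-finger proteins of the Krüppel-like family, and 2 nuclear receptors: RXR, which binds retinoids, and VDR, which binds vitamin D and pairs with RXR.

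The deposited lists held coordinates only, in the mouse build mm9, without a score, read number or control value. Sequencing depth behind each list is therefore unknown, and absence from a list cannot be told apart from a site that was bound but missed. Every interval was 400 bp long, and intervals listed for several factors stood in the same order in 36 of 36 pairs of lists. The sources used here do not say what this order stands for. The identity of the cells cannot be checked from intervals. Percentages carry exact Clopper-Pearson 95% intervals and differences of percentages carry Newcombe 95% intervals, which cover counting error only. Each list was also compared with its background, the percentage of all 34724 intervals listed for that factor. An interval listed for neither FOSL2 nor ATF2 is in the common set only because at least 1 of the other 7 factors listed it, so the background counts for those 7 are raised by the way the set was formed.

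More of the FOSL2 list was shared than of the ATF2 list, which was longer. ATF2 was listed at 53.8% of FOSL2 sites (95% interval 52.6% to 55.0%), against 33.3% of all common intervals and 28.7% of the intervals not listed for FOSL2. FOSL2 was listed at 29.3% of ATF2 sites (28.5% to 30.1%), against 18.1% of all common intervals and 12.5% of those not listed for ATF2. Together the proteins were listed at 9.74% of the common set. Both percentages were thus above their backgrounds by more than the counting intervals. When the ATF2 list was reduced to the length of the FOSL2 list by taking evenly spaced entries, which makes both percentages the same number, sharing was 28.9%, against 18.1% of the common set in a list of that length.

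The 3 classes differed first in how many of the other 7 factors were listed at the same interval. Shared sites carried a mean of 3.77 of the other 7 factors (median 4), FOSL2-only sites 1.57 (median 1) and ATF2-only sites 1.40 (median 1). The shared mean exceeded each single-list mean on 20 of 20 chromosomes. None of the other 7 was listed at 6.65% of shared sites, 44.2% of FOSL2-only sites and 39.8% of ATF2-only sites. Over the common set 13.7% of intervals had none, but this is no background. An interval without any of the 7 must be a FOSL2 or ATF2 site. Leaving out the ATF7 list moved the value for shared sites to 14.7%. At the other end, 41.8% of shared sites carried 5 or more of the other 7, compared with 12.2% of FOSL2-only and 7.85% of ATF2-only sites (background 12.0%). All 9 factors were listed together at 504 intervals, which is 14.9% of the shared class. All 7 others were listed at 41 FOSL2-only sites (1.41%) and 104 ATF2-only sites (1.27%), against a background of 2.02%. Shared sites were therefore more crowded than sites in 1 list alone, whose median was 1 other factor.

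Sharing went up step by step with the number of other factors, as the plot of sharing by number of other factors shows. Among FOSL2 sites with none of the other 7, 14.9% were also listed for ATF2 (225 of 1507). The percentage was 47.2% with 1 other factor, 63.6% with 3, 72.7% with 5 and 92.5% with all 7 (504 of 545). Among ATF2 sites it was 6.48% with none of the other 7, 17.95% with 1, 42.5% with 3, 60% with 5 and 82.9% with all 7 (504 of 608). Each step up was higher than the one before in both lists. The largest step for the FOSL2 list was the one from 0 to 1 other factor. From 1 to 7 other factors, the listing of each protein over all common intervals also rose. With 1, 491 intervals were shared, 549 FOSL2-only, 2244 ATF2-only and 10517 listed for neither. With all 7, ATF2 was at 608 and FOSL2 at 545 of 701 intervals, so sharing there was only slightly above background. Intervals with none of the 7 are in the set only through FOSL2 or ATF2, so they have no such background.

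**Figure D1:**
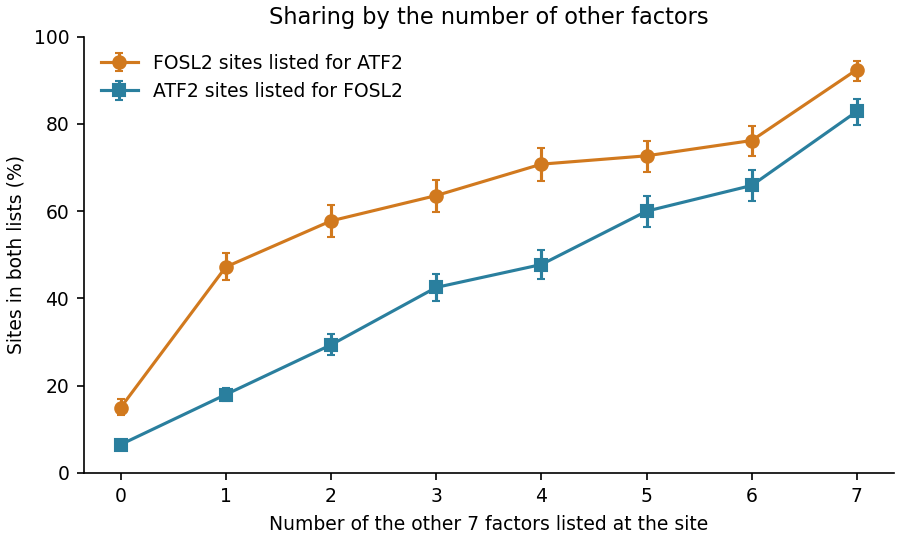
Percentage of FOSL2 sites also listed for ATF2 (orange circles) and of ATF2 sites also listed for FOSL2 (blue squares), by the number of the other 7 factors at the site. Bars are exact 95% intervals for counting error; the FOSL2 series runs from 14.9% to 92.5% and the ATF2 series from 6.48% to 82.9%.

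Which factors accompanied the sites separated the FOSL2-only class from the ATF2-only class, although their mean numbers of other factors were close. As percentages of each class, JunB and cJun, the Jun partners, were higher at FOSL2-only sites, and ATF7 was higher at ATF2-only sites. Counted from the Jun lists the 2 proteins were level, the ATF2 list being longer. FOSL2 was at 32.5% and ATF2 at 32.8% of JunB sites, and at 32.8% and 32.6% of cJun sites (backgrounds 18.1% and 33.3%). Of ATF7 sites, 33.8% were listed for FOSL2 and 65.9% for ATF2. JunB was listed at 63.3% of shared sites, 39.1% of FOSL2-only sites and 14.2% of ATF2-only sites, against a background of 29.0%. The difference between the 2 single-list classes was 24.9 percentage points (23.0 to 26.8), and JunB was more frequent at FOSL2-only sites on 20 of 20 chromosomes. ATF2-only sites thus carried JunB less often than the common set as a whole.

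For cJun the percentages were 42.0% of shared sites, 20.8% of FOSL2-only sites and 7.27% of ATF2-only sites, with a background of 17.8%. FOSL2-only sites exceeded ATF2-only sites by 13.6 points (12.0 to 15.2), again on 20 of 20 chromosomes. Few sites of any class had cJun without JunB: 49 shared sites (1.45%), 39 FOSL2-only sites (1.34%) and 80 ATF2-only sites (0.980%). All 3 values were under the background of 3.54%, and intervals listed for neither FOSL2 nor ATF2 stood at 5.24%. At least 1 of these Jun proteins was listed at 64.8% of shared, 40.5% of FOSL2-only and 15.2% of ATF2-only sites (background 32.6%). The majority of FOSL2-only sites was therefore listed for neither of the Jun proteins profiled. JunD, another possible partner of FOSL2, is not among the 9 lists.

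ATF7, the relative of ATF2, gave the opposite order. It was listed at 61.7% of shared sites, 14.1% of FOSL2-only sites and 34.0% of ATF2-only sites, with a background of 21.2%. The difference of FOSL2-only minus ATF2-only sites was -20.0 points (-21.5 to -18.3), and it was negative on 20 of 20 chromosomes. The FOSL2-only value was under this background, which includes the ATF2 sites. It was above the 10.4% of intervals listed for neither protein. ATF7 was thus the one bZIP factor of the 3 that was rarer at FOSL2-only than at ATF2-only sites.

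Shared sites combined both patterns. ATF7 was listed together with cJun or JunB at 41.4% of shared sites, but at 8.06% of FOSL2-only and 6.51% of ATF2-only sites. Of all 34724 common intervals, 2362 were listed for ATF7 and JunB and 1530 for ATF7 and cJun. Counted separately, ATF7 was at 61.7% and cJun or JunB at 64.8% of shared sites. Whether they met there more often than these percentages imply was not tested. ATF7 without either Jun protein was most frequent among ATF2-only sites, at 27.5%, followed by shared sites at 20.3% and FOSL2-only sites at 5.99%. A Jun protein without ATF7 was most frequent among FOSL2-only sites, at 32.4%, followed by shared sites at 23.4% and ATF2-only sites at 8.69%. The order of the classes thus turned around between these ATF7 and Jun combinations, with shared sites between the single-list classes in each.

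**Figure D2:**
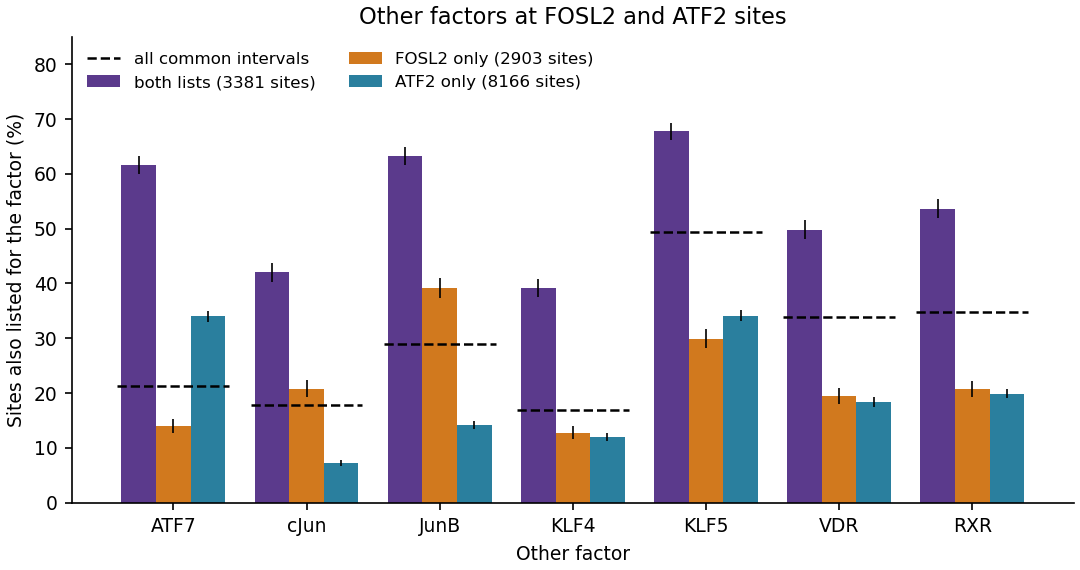
Percentage of shared (purple), FOSL2-only (orange) and ATF2-only (blue) sites that were also listed for each of the other 7 factors, with exact 95% intervals for counting error as black lines; dashed lines give the percentage over all 34724 common intervals. JunB and cJun are higher at FOSL2-only than at ATF2-only sites, ATF7 is lower, and every factor is highest at shared sites.

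The zinc-finger proteins and the nuclear receptors were far more frequent at shared than at single-list sites, and over whole lists the single-list classes lay closer together. KLF4 was listed at 39.2% of shared, 12.7% of FOSL2-only and 12.0% of ATF2-only sites (background 16.9%). KLF5, which had the longest of the 9 lists, was at 67.7%, 30.0% and 34.1% in the same order (background 49.3%). VDR was at 49.8%, 19.5% and 18.4% (background 34.0%). RXR was at 53.7%, 20.7% and 19.9% (background 34.8%). Each of these 4 factors was above its background at shared sites and below it in both single-list classes.

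Between FOSL2-only and ATF2-only sites, the differences for KLF4 (0.781 points, -0.589 to 2.22), VDR (1.12 points, -0.525 to 2.81) and RXR (0.813 points, -0.871 to 2.55) had intervals that included 0. Their signs were positive on 11, 14 and 12 of 20 chromosomes. These calls depended on which sites were compared. In the first 50% of each list the differences were 5.09 points for KLF4 (2.01 to 8.30), 8.07 for VDR (4.61 to 11.6) and 7.75 for RXR (4.27 to 11.3). In the last 50% they were 2.39, 3.39 and 3.28 points, and among sites with at least 1 of the other 7 factors 2.96, 4.39 and 4.05 points, with intervals above 0 in each case. Each list was cut at its own middle row. Some shared sites thus counted as ATF2-only in the first 50% and as FOSL2-only in the last 50%. The differences in these parts are therefore not those of the classes as defined above. KLF5 was lower at FOSL2-only sites by a difference of -4.15 points (-6.09 to -2.17), with a negative sign on 16 of 20 chromosomes. VDR and RXR were listed together at 42.1% of shared, 14.8% of FOSL2-only and 13.0% of ATF2-only sites (background 22.8%), and the difference between the single-list classes was 1.86 points (0.404 to 3.37). KLF4 and KLF5 were listed together at 37.4%, 11.6% and 10.8% (background 14.6%). Over whole lists, both single-list classes thus lay far below the shared class for these families.

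Sites with KLF factors or receptors and no further bZIP factor made up 17.5% of the ATF2-only class, 9.37% of the FOSL2-only class and 8.28% of the shared class. JunB, cJun or ATF7, singly or together, was also listed without KLF factors or receptors. Such sites made up 17.5% of shared, 18.7% of FOSL2-only and 18.9% of ATF2-only sites. This likeness holds for whole classes, which differ in how many sites have no other factor. Among sites with at least 1 of the other 7, the percentages were 18.7%, 33.4% and 31.4%. There shared sites were lower than each single-list class on 20 of 20 chromosomes. The combination of a further bZIP factor with a KLF factor or receptor was found at 67.6% of shared, 27.8% of FOSL2-only and 23.8% of ATF2-only sites. Shared sites thus exceeded both single-list classes in the mixed combinations, while KLF factors or receptors without a further bZIP factor were most frequent in the ATF2-only class.

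Exact combinations of the other 7 factors gave the same division. In the shared class the most frequent combination was all 7 (504 sites), followed by ATF7 alone (271), none (225), all but cJun (143) and all but ATF7 (136). In the FOSL2-only class it was none (1282 sites), followed by JunB alone (251), KLF5 alone (119), ATF7 alone (4.03% of the class) and cJun with JunB (3.69%). In the ATF2-only class it was none (3249 sites), followed by ATF7 alone (1317), KLF5 alone (580), ATF7 with KLF5 (381) and KLF5 with RXR (126). JunB alone thus made up 8.65% of FOSL2-only sites and 1.40% of ATF2-only sites. ATF7 alone made up 4.03% of FOSL2-only sites and 16.1% of ATF2-only sites. Of all 34724 common intervals, 4887 had KLF5 alone of the 7, 3016 ATF7 alone and 1855 JunB alone. KLF5 alone was thus less frequent in both single-list classes (4.10% and 7.10%) than in the common set. Of its 4887 intervals, 4103 were listed for neither FOSL2 nor ATF2. Without the chromosome 10 blocks described below, ATF7 alone made up 2.51% of FOSL2-only sites (68 of 2705) and was the sixth most frequent combination there.

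Because the classes differed in crowding, each factor was also compared among sites with the same number, 0 to 6, of the remaining 6 factors. JunB was higher at FOSL2-only than at ATF2-only sites in 7 of 7 such groups, with differences from 7.96 to 49.8 points. Where none of the remaining 6 was listed, JunB was at 16.4% of FOSL2-only sites (251 of 1533) and 3.39% of ATF2-only sites (114 of 3363). Where 2 of the remaining 6 were listed, it was at 66.9% and 17.1%. cJun was higher in 7 of 7 groups as well, by 1.34 to 33.8 points. ATF7 was lower at FOSL2-only sites in 7 of 7 groups, with differences from -27.3 to -14.4 points. The signs for the Jun proteins and ATF7 were therefore opposite at every level of crowding. With all of the remaining 6 listed, the counting intervals of the 2 classes overlapped for JunB (97.6% and 89.7%) and for cJun (68.3% and 58.4%).

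At equal crowding, the receptors were less frequent at FOSL2-only sites, unlike in the whole classes, where their differences had intervals that included 0. VDR was lower at FOSL2-only than at ATF2-only sites in 7 of 7 groups (-12.0 to -0.419 points), and so was RXR (-15.3 to -1.41 points). For both receptors, however, the counting intervals of the 2 classes were apart only in the groups with 0 and 3 of the remaining 6. In the other groups they overlapped. KLF5 was lower in 6 of 7 groups and KLF4 in 5 of 7. The number of remaining factors in these groups includes JunB, cJun and ATF7, whose shares differ between the classes, so a group with a given number does not hold the same factors in both classes.

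Comparison of shared with FOSL2-only sites at equal crowding separated ATF7 from the Jun proteins. ATF7 was higher at shared sites in 7 of 7 groups, by 34.7 to 47.5 points. JunB was lower at shared than at FOSL2-only sites in 5 of 7 groups, and cJun also in 5 of 7. With 4 of the remaining 6 factors listed, for example, JunB was at 71.7% of shared sites (345 of 481), 85.8% of FOSL2-only sites (163 of 190) and 44.2% of ATF2-only sites (211 of 477). The higher overall JunB percentage at shared sites thus did not hold in most groups of equal crowding, whereas against ATF2-only sites JunB was higher at shared sites in 7 of 7 groups. The remaining 6 for JunB include ATF7, which was more frequent at shared sites, so equal numbers do not mean equal factors. Among FOSL2 sites with ATF7, JunB was at 65.7% of shared and 55.6% of FOSL2-only sites. Among those without ATF7 it was at 59.5% and 36.4%, so at fixed ATF7 listing JunB was higher at shared sites.

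ATF2 and JunB divided the FOSL2 list into 4 parts of unlike composition. Both were listed at 2141 FOSL2 sites (34.1%), which carried a mean of 3.84 of the remaining 6 factors. ATF2 without JunB was listed at 1240 sites, with a mean of 1.93, and JunB without ATF2 at 1136 sites, with a mean of 2.30. Neither was listed at 1767 sites (28.1%), with a mean of 0.460. The sites with 1 of the 2 proteins differed in their bZIP company: ATF7 was at 57.7% of those with ATF2 alone and 20.0% of those with JunB alone, and cJun at 3.95% and 49.8%.

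The same division of the ATF2 list by FOSL2 and JunB left most sites with neither. Neither was listed at 7004 ATF2 sites (60.7%), which carried a mean of 0.946 of the remaining 6 factors. JunB without FOSL2 was listed at 1162 sites (10.1%), and these carried a mean of 3.13, including KLF5 at 70.6%, RXR at 62.8%, VDR at 55.2% and cJun at 44.2%. FOSL2 without JunB was listed at 1240 sites (10.7%) with the mean of 1.93 given above. ATF7 went the other way, at 42.5% of the sites with JunB without FOSL2 and 57.7% of those with FOSL2 without JunB. ATF2 sites with JunB without FOSL2 were thus richer in the remaining factors by their mean, but not in ATF7.

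ATF7 was listed at 2086 sites of both lists, at 408 FOSL2-only sites and at 2777 ATF2-only sites. Among ATF2 sites, those with FOSL2 and ATF7 carried a mean of 3.48 of the remaining 6 factors, those with FOSL2 without ATF7 2.64, those with ATF7 without FOSL2 1.35 and those with neither 0.910. Presence of FOSL2 therefore marked more crowded ATF2 sites than presence of ATF7 did. JunB was at 59.5% of ATF2 sites with FOSL2 and without ATF7, and at 17.8% of those with ATF7 and without FOSL2.

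Place in the lists differed between the classes, as the plot of sharing by place in the list shows. Place was measured as the row of a site in percent of the length of the list, so low values are early. In the FOSL2 list the median place was 36.9% for shared and 66.4% for FOSL2-only sites. In the ATF2 list it was 32.5% for shared and 58.4% for ATF2-only sites. Each list was divided into 10 equal parts. Of the 628 FOSL2 sites in the first part 82.0% were shared, and of the 628 in the last part 18.8% were. Of the 1155 ATF2 sites in the first part 53.6% were shared, and of the 1155 in the last part 5.97% were. Sharing was lower in every later part of each list, although the sixth and seventh parts of the FOSL2 list (50.5% and 50.1%) lay within their counting error.

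**Figure D3:**
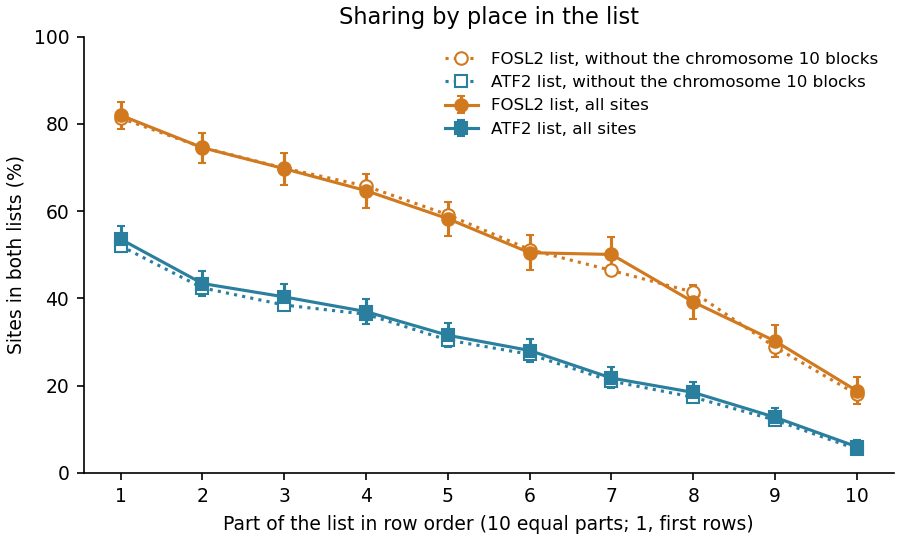
Percentage of sites in both lists in 10 equal parts of the FOSL2 list (orange circles) and of the ATF2 list (blue squares) in row order, where 1 holds the first rows; bars are exact 95% intervals for counting error. Open symbols leave out the dense blocks on chromosome 10; both series fall from the first part (82.0% and 53.6%) to the last (18.8% and 5.97%).

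Row order and crowding went together, yet the classes differed at matched places. Along the FOSL2 list, shared sites carried more other factors than FOSL2-only sites in 10 of 10 parts, by 0.601 to 2.52 factors. Along the ATF2 list they did so relative to ATF2-only sites in 10 of 10, by 0.618 to 2.74 factors. In the first part of the FOSL2 list, JunB was at 76.9% of shared and 58.4% of FOSL2-only sites, and ATF7 at 83.7% and 25.7%. In the first part of the ATF2 list, JunB was at 75.6% of shared and 25.7% of ATF2-only sites, and ATF7 at 82.9% and 57.1%. Early FOSL2-only sites thus carried JunB more often than ATF7, and early ATF2-only sites ATF7 more often than JunB.

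The 3381 shared sites stand in the same order in both lists and can serve as a common ruler. Each single-list site was placed by the number of shared sites above it in its own list, and the ruler was divided into 10 parts of 338 or 339 shared sites. The early parts held few single-list sites (69 FOSL2-only and 274 ATF2-only in the first) and the last part held many (992 and 2722). Along this ruler JunB was higher at FOSL2-only than at ATF2-only sites in 10 of 10 parts, by 16.8 to 49.9 points. cJun was higher in 10 of 10 parts, by 6.07 to 31.1 points. ATF7 was lower in 10 of 10 parts, with differences from -34.5 to -10.0 points. In the first part, JunB was at 59.4% of FOSL2-only and 22.3% of ATF2-only sites, and in the last part at 23.2% and 6.39%. The levels in the last part were thus below those in the first, and the order of FOSL2-only and ATF2-only sites was the same in every part for these 3 factors.

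RXR was higher at FOSL2-only sites in 6 of 10 parts and KLF5 in 2 of 10, so that these factors gave no single order along the ruler. The seventh part stood apart for FOSL2-only sites: JunB was at 64.9% there, above the 58.3% of shared sites in the same part, and cJun at 38.5% against 35.5%. In that part 14.6% of the 205 FOSL2-only sites had none of the other 7 factors, the lowest percentage of the 10 parts. Without the chromosome 10 blocks it was 14.4%.

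**Figure D4:**
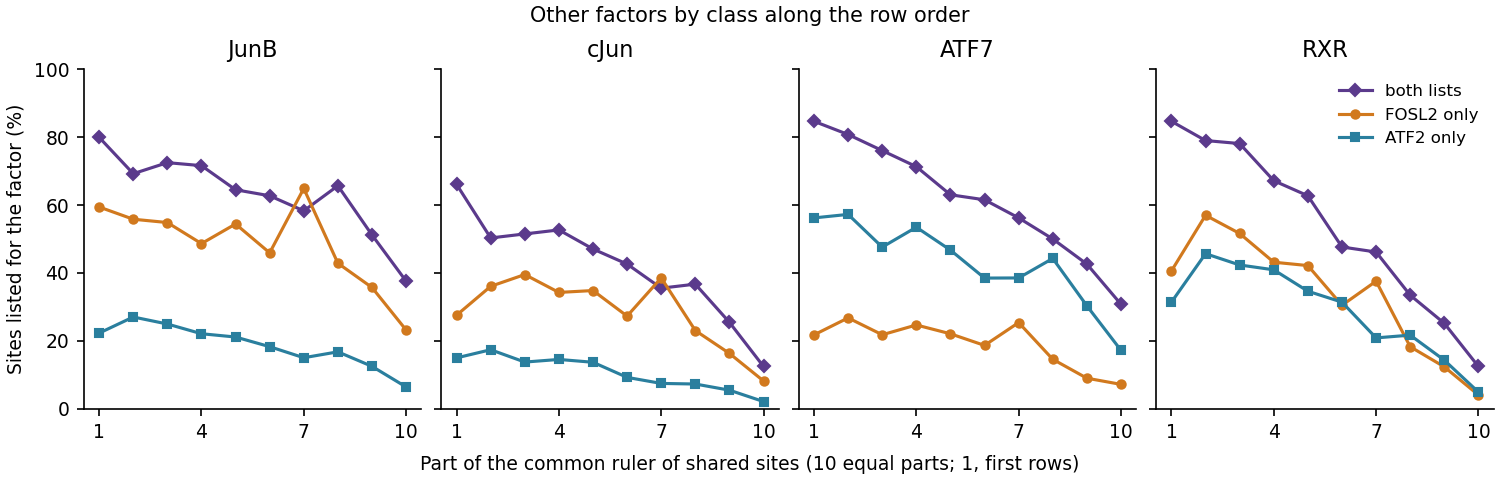
Percentage of shared (purple diamonds), FOSL2-only (orange circles) and ATF2-only (blue squares) sites listed for JunB, cJun, ATF7 and RXR, in 10 parts of the common ruler of shared sites, where 1 is the earliest. JunB and cJun of FOSL2-only sites lie above those of ATF2-only sites in 10 of 10 parts, ATF7 lies below in 10 of 10, and RXR crosses.

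The shared sites stood earlier than other sites in the lists of the other factors too. Among JunB sites, the median place was 30.4% for those shared by FOSL2 and ATF2, 53.3% for FOSL2-only, 44.1% for ATF2-only and 59.3% for those listed for neither. Among ATF7 sites, it was 29.5% for shared, 49.4% for FOSL2-only, 49.7% for ATF2-only and 74.0% for those listed for neither. In the JunB list, ATF2-only sites were thus rarer than FOSL2-only sites by percentage of their class but stood earlier. Since the order of shared intervals is the same in all lists, these places are not independent of those in the FOSL2 and ATF2 lists.

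Sharing varied between chromosomes. The percentage of FOSL2 sites listed for ATF2 ran from 29.2% on chromosome X (14 of 48 sites) to 60.1% on chromosome 16, with a median of 52.8%. The percentage of ATF2 sites listed for FOSL2 ran from 11.02% on chromosome X (14 of 127 sites) to 41.3% on chromosome 10, with a median of 28.9%. Without the blocks of dense intervals described next, chromosome 19 was highest (34.3%) and chromosome 10 stood at 28.4%. Chromosome X was the lowest in both directions, and its interval for the FOSL2 list (16.95% to 44.1%) was wide because of its few sites. Listing itself was also low there: FOSL2 was at 48 and ATF2 at 127 of 670 common intervals. Over all chromosomes these proteins were at 18.1% and 33.3% of common intervals. On chromosome 10 with the blocks, FOSL2 was at 675 of 2425. Sharing by chromosome was not set against such a background.

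**Figure D5:**
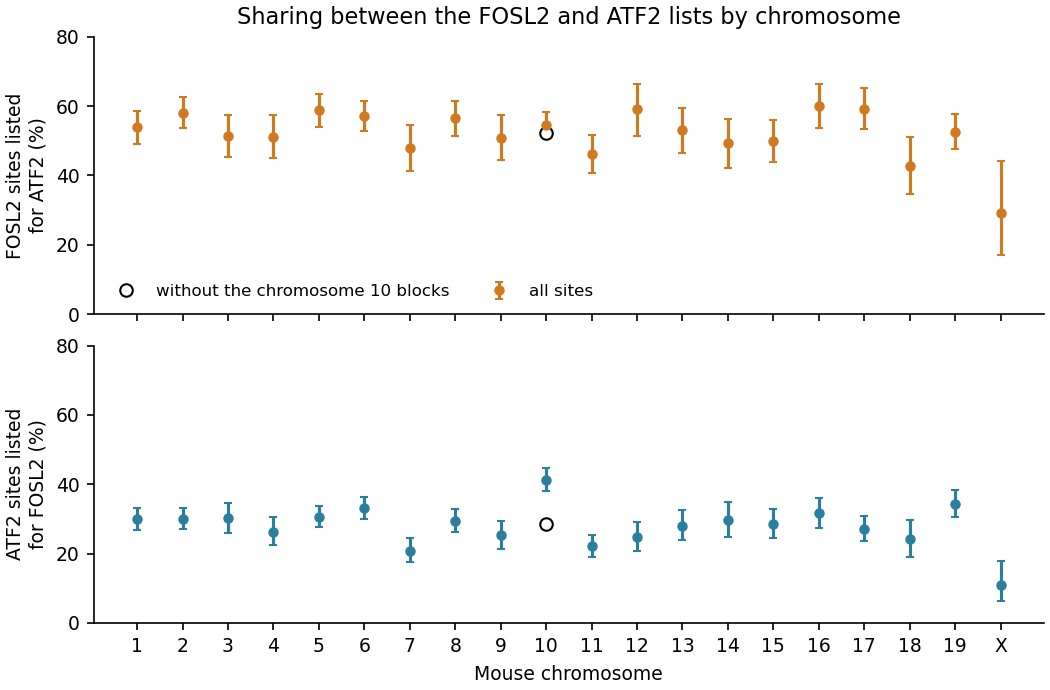
Percentage of FOSL2 sites listed for ATF2 (upper) and of ATF2 sites listed for FOSL2 (lower) on each chromosome, with exact 95% intervals for counting error; open circles give chromosome 10 without its 3 dense blocks. Chromosome X is lowest in both, and chromosome 10 is highest in the lower graph with the blocks (41.3%) but not without them (28.4%).

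Chromosome 10 held 3 blocks of dense intervals, at chr10:106700788-107883256, chr10:116221159-116799359 and chr10:117229085-118066413 from the first to the last interval. They held 943 common intervals: 249 shared, 198 FOSL2-only, 224 ATF2-only and 272 listed for neither. Density was 374, 320 and 336 intervals per Mb in the 3 blocks, whereas 18 intervals lay in the 0.4 Mb between blocks 2 and 3 and 0 to 9 in each 0.1 Mb beside a block. Within the blocks, 55.7% of FOSL2 sites were listed for ATF2 and 52.6% of ATF2 sites for FOSL2. Block 2 stood apart: 51.9%, 74.0% and 48.1% of FOSL2 sites in blocks 1, 2 and 3 were listed for ATF2, and 49.2%, 64.7% and 47.8% of ATF2 sites for FOSL2. On the rest of chromosome 10 these percentages were 52.2% and 28.4%. Block intervals were, however, often listed for each protein: 447 of the 943 for FOSL2 and 473 for ATF2. Outside the blocks 17.3% and 32.8% of common intervals were. Sharing in the blocks was thus only slightly above the listing of all block intervals. In block 3 it was below that listing, with 76 shared, 82 FOSL2-only and 83 ATF2-only intervals and 61 listed for neither.

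Shared sites in the blocks were of a different make-up. They carried a mean of 2.38 of the other 7 factors, against 3.89 for shared sites outside. JunB was at 27.3% of shared block sites and 66.2% of those outside, cJun at 21.3% and 43.7%, and ATF7 at 69.5% and 61.1%. The blocks held 447 FOSL2, 473 ATF2 and 427 ATF7 sites but only 139 cJun and 138 JunB sites. The share of these blocks in the results was measured by leaving them out. Sharing was then 53.7% of 5837 FOSL2 sites (background 32.8%) and 28.3% of 11074 ATF2 sites (background 17.3%), and 9.27% of the common set was listed for both.

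Without the blocks, JunB was at 66.2% of shared, 41.3% of FOSL2-only and 14.5% of ATF2-only sites (background 29.4%). cJun was at 43.7%, 22.0% and 7.28% (background 17.9%), and ATF7 at 61.1%, 12.8% and 33.9% (background 20.6%). The differences between FOSL2-only and ATF2-only sites were 26.8 points for JunB, 14.7 for cJun and -21.1 for ATF7, each slightly farther from 0 than with the blocks. For VDR (background 34.3%) the difference was 1.82 points (0.110 to 3.59), so its interval no longer included 0. The division between the Jun proteins and ATF7 was thus at least as large outside the blocks.

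ATF2 sites within 1 kb were few for FOSL2-only sites and for intervals listed for neither protein alike. An ATF2 site lay within 1 kb, midpoint to midpoint, of 7.34% of FOSL2-only sites (213 of 2903) and of 6.13% of intervals listed for neither. Without the chromosome 10 blocks these were 5.51% and 5.78%. Within 10 kb the values were 33.6% and 27.2% with the blocks, and 28.9% and 26.3% without them. A FOSL2 site lay within 10 kb of 21.8% of ATF2-only sites and 17.5% of intervals listed for neither, and of 19.8% and 16.4% without the blocks. Within 100 kb and without the blocks, an ATF2 site was found for 80.5% of FOSL2-only sites and 74.2% of intervals with neither, and a FOSL2 site for 64.5% of ATF2-only sites and 58.3% of intervals with neither. Outside the blocks the gaps to intervals with neither were thus small at 1 kb and larger at 100 kb.

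Shared sites were the class most often found close to crowded intervals. An interval with 5 or more of the other 7 factors lay within 10 kb of 21.9% of shared, 13.0% of FOSL2-only and 13.8% of ATF2-only sites. Without the blocks the values were 19.1%, 11.7% and 13.1%. The nearest other interval of the common set was at a median distance of 3696 bp from shared, 5003 bp from FOSL2-only and 5672 bp from ATF2-only sites.

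Single sites on chromosome 1, the first 2 by position of each kind, show the classes (1-based, mm9). The shared sites at chr1:16218432-16218831 and chr1:20059804-20060203 carried all 7 other factors and stood at 13.1% and 15.9% of the FOSL2 list and at 10.8% and 13.4% of the ATF2 list. The shared sites at chr1:33781418-33781817 and chr1:74437712-74438111 carried none of the 7 and stood late, at 78.7% of the FOSL2 list or later. The shared sites at chr1:43823166-43823565 and chr1:92626013-92626412 carried cJun and JunB and no other factor, and stood at 68.6% and 77.4% of the FOSL2 list. The crowded shared sites were thus early and the sparse ones late in this small sample.

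The FOSL2-only sites at chr1:63613586-63613985 and chr1:148164021-148164420 carried all 7 other factors, so that ATF2 was the one factor of 9 not listed there, at 27.6% and 3.21% of the FOSL2 list. Those at chr1:11204132-11204531 and chr1:14263943-14264342 carried none of the 7 and stood at 90.8% and 18.8%. The ATF2-only sites at chr1:45088415-45088814 and chr1:88366964-88367363 carried all 7 other factors, at 8.72% and 8.83% of the ATF2 list. Those at chr1:4775673-4776072 and chr1:5072945-5073344 carried none and stood at 88.3% and 75.4%. An early place was therefore not limited to crowded sites, as the FOSL2-only site at 18.8% shows. Genes, exons and motifs at these positions were not analysed here.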

How the data were processed

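FOSL2 and ATF2 binding was measured by ChIP-seq in 3T3-L1 cells at 4 h, with 1 library per factor; of 30 labelled samples, 9 were used, and the other 21 were not analysed here. The authors deposited a list of intervals (chromosome, start, end) per factor, with no score, count or signal. FastQC, Bowtie, HOMER and mm9 were used, per the submitters' processing notes; the sources used here do not give versions, roles or the peak threshold. From these lists, intervals of 20 chromosomes (without Y) were matched by identical coordinates and classed. The calculations ran in pandas 2.3.3, scipy 1.17.1 and numpy 2.4.6 under Python 3.11.15 and were tested on simulated lists. With 1 library per factor no test across samples was run; the spread between cultures and antibodies is unknown. The members, classes and comparisons were chosen with earlier results of these data known. Named sites were the first 2 by position of each kind, outside chromosome 18 and the chromosome 10 blocks. Alternatives were autosomes alone, overlap of at least 1 bp, the first or last 50% of rows, an ATF2 list of equal length, ATF2 sites within 1 kb, sites with at least 1 other factor, each other list left out and, chosen after seeing the data, without the first 100 rows. Motifs, proteins and gene annotation were not analysed here.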

Additional observations from a re-analysis of the deposited data

How the results depend on the processing

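Of 133 alternative values for 17 results, 80 stayed within the counting interval of the reported value, 52 moved outside it and 1 changed sign; depth is unknown and limits every list. No paired analysis was possible because each factor had 1 library and no test was made. The JunB, cJun and ATF7 differences kept their sign under 7 of 7 alternatives. Without the chromosome 10 blocks, 28.3% of ATF2 sites were shared, 5.20% of shared sites had none of the other factors and 28.9% of FOSL2-only sites lay within 10 kb of an ATF2 site. In the first 50% of rows, sharing was 69.9% and 38.0%, sites with no other factor made up 2.55% of shared, 28.3% of FOSL2-only and 22.0% of ATF2-only sites, the differences were -24.4 (ATF7), 20.5 (cJun) and 31.2 points (JunB), 11.8% of shared and 5.70% of FOSL2-only sites lay in the first 10% of the FOSL2 rows kept, 14.4% and 7.29% in that of the ATF2 rows, and 23.9% of FOSL2-only sites lay within 10 kb of an ATF2 site. In the last 50% these were 32.0%, 17.4%, 15.7%, 47.9%, 51.9%, -11.0 for ATF7, 0% and 14.7% (FOSL2 rows), 8.28% of ATF2-only sites and 22.6%, and the KLF5 difference reversed to 1.34 points (-0.805 to 3.55); the cause was not tested. Each list was divided at its own middle row. Some shared sites therefore count as ATF2-only in the first 50% and as FOSL2-only in the last 50%. All values for these parts, the KLF5 sign change included, rest on this division and not on the classes defined above. The 0% follows from this division and the common order. An ATF2 list of equal length gave 28.9% for FOSL2 sites, and ATF2 sites within 1 kb gave 57.2%. Among sites with at least 1 other factor the differences were -31.3 (ATF7), 25.2 (cJun) and 46.4 points (JunB). Leaving out each other list in turn gave 6.83% to 14.7% of shared, 44.4% to 52.8% of FOSL2-only, and 39.9% to 55.9% of ATF2-only sites with no other factor.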

Other observations

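FOSL2-only sites were found in tight runs, meaning neighbours with no other interval of the common set between them, outside the chromosome 10 blocks. A run of 9 FOSL2-only sites lay at chr19:44468919-44482205, over 13287 bp. All 9 were listed for JunB and for no other of the 7 factors, and 7 of them were among the first 20 rows of the FOSL2 list. A run of 8 FOSL2-only sites lay at chr10:127520891-127527392, over 6502 bp, outside the dense blocks, and 1 of the 8 was listed for JunB. The longest run of ATF2-only sites held 12 sites at chr13:22087550-23822717, with ATF7 at 2, KLF5 at 3 and JunB at 1 of them. These runs were chosen after their values were seen.

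At chr17:39980481-39985832, 5 ATF2 sites stood between rows 3 and 10 of the ATF2 list. All 5 were listed for ATF7, 2 of them for FOSL2 and 1 for KLF5. Of the first 20 rows of each list, 12 FOSL2 sites and 9 ATF2 sites were shared, and of the first 100 rows 76 and 45. The densest 100 kb window of shared sites held 10 of them, on chromosome 19 between 5800001 and 5900000, among 27 common intervals.

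Of 603 intervals listed for 8 of the 9 factors, 104 (17.2%) lacked FOSL2 and 41 (6.80%) lacked ATF2. ATF7 was the missing factor at 136, cJun at 143 and KLF4 at 126 of them. JunB was missing at 4 intervals, as was KLF5, whose list was the longest. The lists differ in length, and the counts are given without a test.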
